A study of Rattus norvegicus with 10 samples.

Results

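The rat major histocompatibility complex (MHC), named RT1, was examined in kidneys of male and female PCK rats. The gene set was every gene of the deposited table whose symbol begins with RT1-, together with *Cd74* and *Ciita*, which gave 46 of 32545 genes. It holds 34 class I genes and pseudogenes, 10 class II chain genes, the invariant chain gene *Cd74* and the class II transactivator gene *Ciita*. PCK rats carry a spontaneous mutation of *Pkhd1* and are a model of autosomal recessive polycystic kidney disease. RNA of renal cortex from 5 males and 5 females was sequenced, with 1 library per rat, and the sample labels give the age as 12 to 14 weeks, while the study's text gives a younger range. Both sexes carry the mutation, no rat without it was included, and the study's methods describe littermates from a pair of litters, so all differences below are between the sexes or between single rats of this strain.

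Class I molecules pair a heavy chain with beta-2 microglobulin and show peptides made inside the cell to CD8 T cells. Class II molecules pair an alpha with a beta chain and show peptides from endocytosed protein to CD4 T cells. The invariant chain CD74 fills the groove of new class II molecules, and the DM pair then exchanges its remnant for antigen peptides while the DO pair restrains DM. CIITA is the coactivator that switches on class II chain genes together with *Cd74*, and interferon gamma induces it in many cell types. In the kidney, class II is known mainly from dendritic cells and macrophages, and tubular cells can be induced to make it.

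Expression was read as FPKM, the reads on a gene scaled to its length and to the depth of the library, so levels can be compared between genes. Libraries held 13912569 to 20285911 reads on genes, and 1 read on a gene of 1 kb was worth 0.0486 to 0.0710 FPKM. Proximal tubule markers were abundant in every library, with a summed level of 3324 to 7514 FPKM. The share of mitochondrial reads was 14.3% to 19.1% in 9 libraries and 26.8% in female 2. Of the 46 genes, 28 had a read in all 10 libraries and 9 had none in any library. A count of 0 allows up to 3 reads, which is 0.146 to 0.213 FPKM on a gene of 1 kb. The 9 were all class I genes or pseudogenes: *RT1-N2*, *RT1-S2*, *RT1-O1*, *RT1-CE6*, *RT1-M1-5*, *RT1-M1-1-ps*, *RT1-M3-2-ps*, *RT1-M10-3-ps* and *RT1-P2-ps1*. Another 8 had at most 7 reads in a library and stayed below the mean of 0.1 FPKM required for testing, among them the class II gene *RT1-Ha*. The other 29 were tested.

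All 44 RT1 genes lie on chromosome 20 of Rnor_6.0, the genome build of the table, between 154074 and 5421098. Many are near-identical copies, and which copies a rat carries depends on its MHC haplotype, which may differ from that of the reference genome. Of the 44, 14 overlap another of them, and 12 of these were tested. Levels of single class I genes are therefore uncertain where reads could be split among copies or among the overlapping pairs *RT1-CE16* and *RT1-A3*, *RT1-A1* and *RT1-A2*, *RT1-M6-1* and *RT1-M6-2*, *RT1-T24-1* and *RT1-T24-2*, and the group of *RT1-CE2* to *RT1-CE7*. A haplotype unlike the reference could also change the reads on class II chain genes, which was not tested. Whether strand was used in counting is not given in the sources used here.

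*Cd74* (ENSRNOG00000018735, chromosome 18, 56071478 to 56080849, Rnor_6.0) was the most abundant of the set. Its level was 614, 578, 608, 550.4 and 954 FPKM in males 1 to 5 and 768, 1023, 507, 486 and 584 FPKM in females 1 to 5. Female 2 and male 5 stood above the other 8 rats, and the sexes overlapped throughout. The mean was 661 ± 166 FPKM in males and 674 ± 225 FPKM in females (SD, n = 5 each), a log2 fold change of -0.00 (SE 0.23, 95% confidence interval -0.50 to 0.50). This interval leaves room for a difference of up to 0.50 in either direction on the log2 scale. In bulk tissue, fewer cells of a type and less RNA per cell cannot be told apart.

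*Ciita* (ENSRNOG00000002659, chromosome 10, 5213350 to 5260608) was low in level. It reached 3.35, 3.46, 3.55, 2.91 and 3.70 FPKM in the males and 3.47, 3.24, 1.97, 2.04 and 2.28 FPKM in the females. Females 3, 4 and 5 lay below every male, whereas females 1 and 2 lay within the male range. The mean was 3.39 ± 0.302 FPKM in males and 2.60 ± 0.705 FPKM in females (SD, n = 5), a log2 fold change of -0.41 (SE 0.17, interval -0.79 to -0.03) that did not pass adjustment over all genes (limma, adjusted p = 0.283).

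Among the class II chains, *RT1-Da*, the alpha chain of the rat DR-like molecule, led with a mean share of 54.0% of the summed class II chain FPKM (49.7% to 57.7% over the rats). Its level was 123, 122, 113, 76.0 and 177 FPKM in males 1 to 5 and 113, 98.8, 92.1, 98.9 and 98.2 FPKM in females 1 to 5. Male 5 was the highest and male 4 the lowest of all rats, while the 5 females fell between them within a narrow range. Its beta chain *RT1-Db1* followed the same outline at a lower level, 12.1, 10.9, 11.6, 6.56 and 16.3 FPKM in males and 9.97, 8.05, 9.09, 9.29 and 10.7 FPKM in females. The ratio of *RT1-Da* to *RT1-Db1* stayed between 9.19 and 12.3 in all 10 rats. The part of mapping in this ratio and in the share of *RT1-Da* was not tested. The further beta gene *RT1-Db2* had 1 to 17 reads per library and a mean of 0.213 ± 0.235 FPKM in males and 0.336 ± 0.174 FPKM in females (SD, n = 5).

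The DQ-like pair came next. *RT1-Ba*, the alpha chain, was at 37.8, 36.0, 33.3, 27.7 and 58.4 FPKM in males and 41.4, 36.3, 28.4, 28.5 and 31.6 FPKM in females. *RT1-Bb*, the beta chain, was at 37.0, 33.7, 33.4, 28.6 and 43.4 FPKM in males and 45.9, 45.9, 31.3, 36.3 and 37.2 FPKM in females. Neither gene separated the sexes. The ratio of *RT1-Ba* to *RT1-Bb*, however, was 0.967 to 1.34 in males and 0.786 to 0.908 in females, so that its ranges did not overlap. It is 1 of 5 ratios between genes that were looked at with other results known, and is given without a test. The ranges of the other ratios overlapped between the sexes, and the share of all gene pairs with separate ranges was not computed.

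*RT1-DOa* and *RT1-DOb* encode the DO pair. *RT1-DOa* was at 3.41, 3.48, 3.07, 1.83 and 3.60 FPKM in males and 1.43, 3.15, 1.77, 0.711 and 1.47 FPKM in females. Apart from male 4 and female 2 the males lay above the females, and on the log2 scale the difference was -0.92 (SE 0.33, interval -1.63 to -0.20, limma adjusted p = 0.194). *RT1-DOb* was at 5.62, 5.99, 5.11, 3.42 and 6.40 FPKM in males and 4.13, 4.80, 4.30, 2.06 and 3.63 FPKM in females, a difference of -0.50 (SE 0.23, adjusted p = 0.334). Male 4 was the lowest male for both genes and lay within the female range, as did male 3 for *RT1-DOa*, just under female 2. Without male 4 the ranges of *RT1-DOb*, *RT1-Da* and *RT1-Db1* no longer overlapped between the sexes, and without female 2 those of *RT1-DOa* did not, although none of these genes passed the adjusted threshold in any of those fits. With fewer rats the share of all genes with separate ranges rises too, to 7.18% without male 4 and 8.69% without female 2, from 5.10% with all 10 rats.

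**Figure D1:**
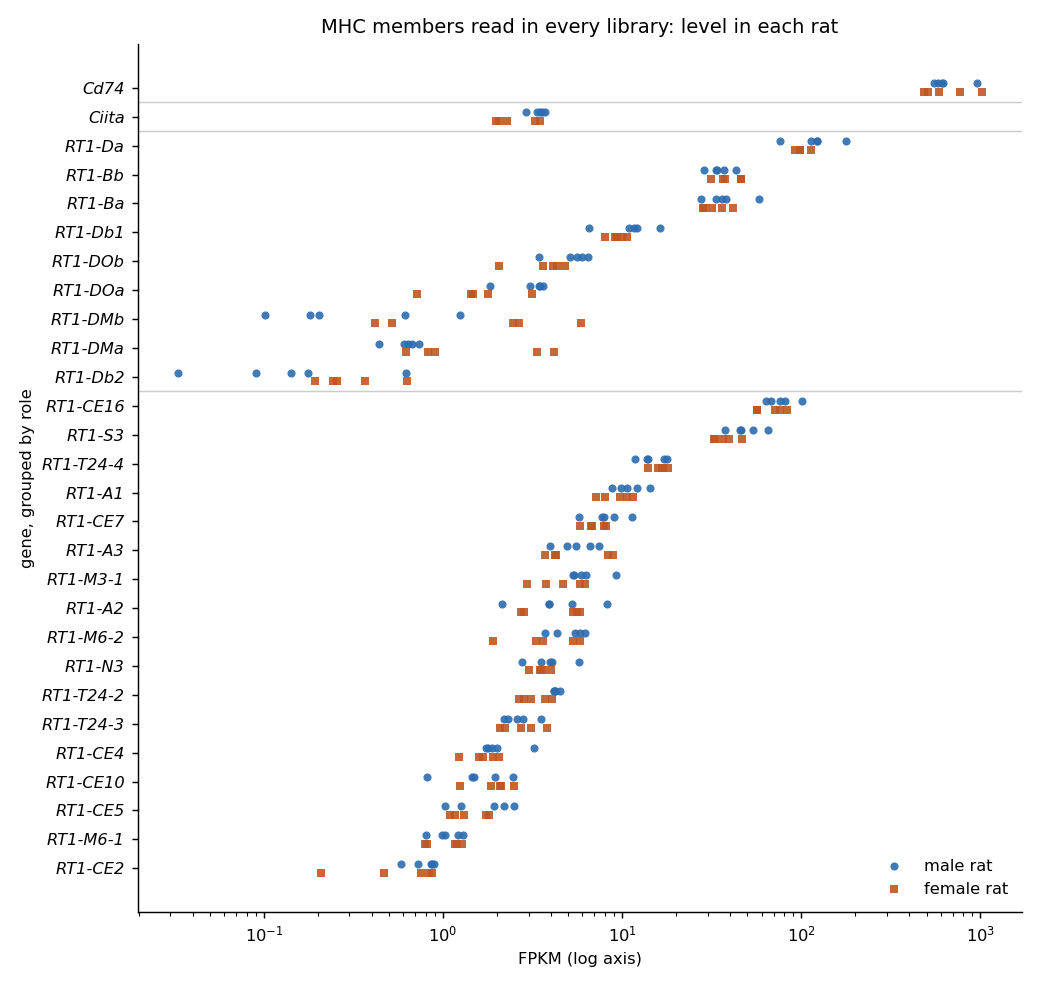
Level in each rat of the 28 genes of the set that were read in every library, grouped by role with *Cd74* at the top. Each point is 1 rat (circles male, squares female) on a log FPKM axis. The sexes overlap for all genes but *RT1-T24-2*, where the highest female (4.06 FPKM) lies just under the lowest male (4.14 FPKM).

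Class II chain genes are known to share short promoter elements, the X box bound by the RFX complex and the Y box bound by NF-Y, on which CIITA docks. RefSeq promoter sequences (build GRCr8, 250 bases before each start) were matched by symbol for 36 of the 46 genes. *RT1-DMb*, *Ciita*, *RT1-CE7*, *RT1-M2* and 6 pseudogenes had no entry. The Y box letters CTGATTGG, searched on both strands, occurred in 7 of the 9 class II chain promoters, all of them in the direction of transcription, and in 3.19% of all 33469 promoters. The X box core AGCAAC occurred in 6 of the 9 and in 12.1% of all promoters. Both together were found in *RT1-Da*, *RT1-Db1*, *RT1-Db2*, *RT1-DOa* and *RT1-Ha*, in the class I pseudogene *RT1-M1-5*, and in 0.433% of all promoters. Of the 26 class I promoters 7 held the Y box and 4 the core, and *Cd74* held the core alone. In the 5 class II genes the first base of the core preceded the first base of the Y box by 29 to 31 bases. Levels differed among the genes with both, where *RT1-Da* was abundant and *RT1-Ha* had at most 2 reads in a library. A relation between match and level was not tested. The last 150 bases before the start are shown for the 4 most abundant class II chain genes and *RT1-DOa*, with AGCAAC and CTGATTGG in capitals, from GRCr8 chr20:4515265-4515414 (plus strand), chr20:4560163-4560312 (minus strand), chr20:4758424-4758573 (minus strand), chr20:4576907-4577056 (plus strand) and chr20:4604119-4604268 (minus strand).
RT1-Da: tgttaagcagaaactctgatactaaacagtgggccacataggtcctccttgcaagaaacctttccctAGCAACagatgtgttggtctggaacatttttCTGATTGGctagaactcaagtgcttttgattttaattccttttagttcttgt
RT1-Db1: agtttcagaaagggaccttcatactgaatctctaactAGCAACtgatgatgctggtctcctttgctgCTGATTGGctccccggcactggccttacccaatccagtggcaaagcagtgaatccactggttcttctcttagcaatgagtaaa
RT1-DOa: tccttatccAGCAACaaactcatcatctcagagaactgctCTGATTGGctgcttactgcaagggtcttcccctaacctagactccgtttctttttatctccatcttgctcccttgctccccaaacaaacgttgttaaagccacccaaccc
RT1-Ba: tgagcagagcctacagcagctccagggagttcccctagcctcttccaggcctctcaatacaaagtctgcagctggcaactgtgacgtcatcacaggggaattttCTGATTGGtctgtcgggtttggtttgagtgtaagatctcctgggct
RT1-Bb: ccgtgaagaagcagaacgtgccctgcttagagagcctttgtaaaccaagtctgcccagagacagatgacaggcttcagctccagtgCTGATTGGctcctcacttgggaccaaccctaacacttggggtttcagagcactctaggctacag

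In *RT1-Ba* and *RT1-Bb* the Y box started 46 and 64 bases before the start, and the AGCAAC letters were not in the window. *RT1-DMa* and *RT1-DOb* lacked the 8 Y box letters in this window. Among class I promoters, 7 of 26 held the Y box, each as its reverse complement CCAATCAG. They included *RT1-S3* and *RT1-CE16*, the class I genes of highest level, shown with that string in capitals, from GRCr8 chr20:2675378-2675527 (plus strand) and chr20:3265444-3265593 (minus strand).
RT1-S3: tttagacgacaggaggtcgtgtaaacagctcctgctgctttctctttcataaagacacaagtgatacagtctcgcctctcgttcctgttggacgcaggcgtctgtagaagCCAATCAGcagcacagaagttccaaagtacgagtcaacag
RT1-CE16: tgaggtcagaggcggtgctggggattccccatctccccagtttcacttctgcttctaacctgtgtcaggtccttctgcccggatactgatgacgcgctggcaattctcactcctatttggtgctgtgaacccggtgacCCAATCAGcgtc

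Reads of the DM pair lay on different listed rows in different rats. *RT1-DMa* (ENSRNOG00000047864, chromosome 20, 5240975 to 5244386, minus strand) was at 0.637, 0.436, 0.602, 0.675 and 0.734 FPKM in males and 0.897, 0.822, 0.617, 3.34 and 4.18 FPKM in females. Females 4 and 5 thus stood apart from the other 8 rats, with 102 and 115 reads against 14 to 26. *RT1-DMb* (ENSRNOG00000051002, 5227045 to 5234290, minus strand) was at 1.25, 0.180, 0.203, 0.102 and 0.615 FPKM in males and 2.47, 0.416, 2.66, 0.521 and 5.87 FPKM in females. Here females 1, 3 and 5 were high, and female 4 was not. On the log2 scale the difference between the sexes was 1.15 for *RT1-DMa* (SE 0.48, interval 0.09 to 2.21, limma adjusted p = 0.271) and 1.94 for *RT1-DMb* (SE 0.73, interval 0.32 to 3.55, adjusted p = 0.224). *RT1-DMa* and *RT1-DMb* gave the largest fold changes of the set, and neither passed adjustment.

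Rnor_6.0 holds a second row for each of these genes, called its second copy here from its description and position, since the sequences of the rows were not compared. LOC100909593, described as an M alpha chain-like gene, lies on chromosome 20 at 3935529 to 3938915 on the plus strand, and LOC100909630, an M beta chain-like gene, at 3945601 to 3952846 on the plus strand. The spans of *RT1-DMb* and LOC100909630 are both 7246 bases. LOC100909593 was at 4.09 FPKM in male 4, from 146 reads, and at 0 to 0.465 FPKM in the other 9 rats. LOC100909630 was at 8.06 FPKM in male 4 and 2.81 FPKM in male 2, and at 0.108 to 0.536 FPKM in the other 8. Male 4, lowest of all rats for *RT1-DMb*, was therefore the highest for its second copy.

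Summed over both copies, the alpha gene ranged from 0.822 to 4.76 FPKM and the beta gene from 0.522 to 8.16 FPKM over the 10 rats. With the copies summed, an alternative chosen after seeing the data, the difference between the sexes was 0.42 for the alpha gene and 0.13 for the beta gene on the log2 scale. These values rest on single rats. Without male 4 they were 0.86 and 0.64, and over the omission of each rat in turn they ran from 0.10 to 0.86 for the alpha gene and from -0.30 to 0.64 for the beta gene, with the lowest values without female 5 and without male 3. The neighbouring *Brd2* and its second row LOC100909544 did not divide the rats in the same way. *Brd2* was highest in females 1 and 3 (1.71 and 1.47 FPKM). LOC100909544 was highest in female 5 (3.07 FPKM, with 0.418 FPKM on *Brd2*), the rat whose DM reads lay on *RT1-DMa* and *RT1-DMb*, while male 4 had 0.815 FPKM on *Brd2* and 1.14 FPKM on LOC100909544. *Tap2*, a peptide transporter subunit in the same segment, is also listed in 2 rows, at 4.65 to 8.90 and 1.97 to 3.69 FPKM, and the first row was above the second in all 10 rats. The GRCr8 gene table has 1 gene each for *RT1-DMa*, *RT1-DMb*, *Brd2* and *Tap2* and none under the LOC symbols. How reads that match both copies were counted is not given in the sources used here, and the part of mapping in these values was not tested.

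**Figure D2:**
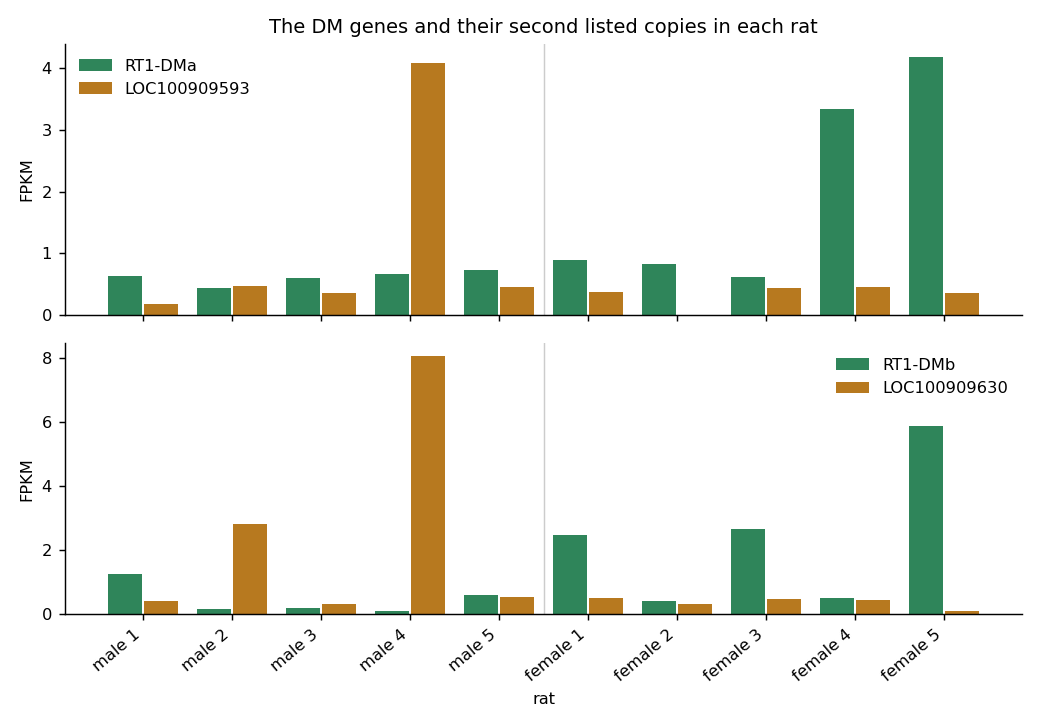
FPKM of *RT1-DMa* and *RT1-DMb* (green) and of the second listed copy of each (ochre) in every rat, males on the left and females on the right. The copy with the most reads differs between rats: male 4 has 4.09 and 8.06 FPKM on the second copies, whereas female 5 has 4.18 and 5.87 FPKM on *RT1-DMa* and *RT1-DMb*.

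Class I expression was led by a few genes. The summed level of the 34 class I genes was 202 ± 34.4 FPKM in males and 175 ± 22.6 FPKM in females (SD, n = 5), close to the sum of the class II chains of 217 ± 58.0 and 192 ± 18.8 FPKM. *RT1-CE16* made up 38.7% of the class I sum on average and *RT1-S3* made up 23.0%. The class I light chain gene *B2m* was at 446 to 743 FPKM in 8 rats, at 417 FPKM in female 5 and at 798 FPKM in female 2. *RT1-A1*, *RT1-A2* and *RT1-A3* carry the name of the classical class I region, which encodes the peptide-presenting transplantation antigens. In Rnor_6.0 *RT1-A1* (5351605 to 5421098) and *RT1-A2* (5374985 to 5378539) lie on the plus strand of chromosome 20, whereas *RT1-A3* lies apart from them on the minus strand (3791629 to 3796275), and GRCr8 places the promoters of all 3 near each other on the plus strand.

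*RT1-CE16* was at 80.6, 63.3, 67.6, 75.9 and 101 FPKM in males and 83.1, 71.3, 75.9, 56.4 and 56.3 FPKM in females. Male 5 was highest and females 4 and 5 lowest, and the log2 fold change of -0.18 (SE 0.15, interval -0.51 to 0.15) was within the spread between rats. *RT1-S3* was at 53.7, 46.1, 45.5, 37.5 and 64.8 FPKM in males and 39.4, 32.6, 46.9, 32.9 and 36.3 FPKM in females. Of the females, only female 3 exceeded the male median of 46.1 FPKM, and the log2 fold change was -0.38 (SE 0.15, interval -0.71 to -0.06, adjusted p = 0.234).

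*RT1-T24-2* (ENSRNOG00000000787, chromosome 20, 3242470 to 3249189) was the single gene of the set whose ranges did not overlap between the sexes, against 5.10% of all 17631 genes tested. It was at 4.23, 4.15, 4.22, 4.49 and 4.14 FPKM in males and 2.66, 3.09, 4.06, 2.83 and 3.69 FPKM in females, from 40 to 85 reads. The males lay close together and the females were spread below them. The log2 fold change was -0.39 (SE 0.13, interval -0.66 to -0.11) and did not pass adjustment (limma, adjusted p = 0.156). Under quantile normalization its ranges overlapped. It shares its strand and part of its span with *RT1-T24-1*, which had at most 10 reads in a library.

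The remaining class I genes that averaged 1 FPKM or more were lower. *RT1-T24-4* was at 11.7 to 18.0 FPKM, *RT1-A1* at 7.10 to 14.2 FPKM and *RT1-CE7* at 5.76 to 11.4 FPKM. *RT1-A3*, *RT1-M3-1*, *RT1-A2*, *RT1-M6-2* and *RT1-N3* had means of 3.53 to 6.41 FPKM in each sex, and *RT1-T24-3*, *RT1-CE4*, *RT1-CE10*, *RT1-CE5* and *RT1-M6-1* had means of 1.05 to 2.78 FPKM in each sex. None of these passed the adjusted threshold between the sexes (limma, adjusted p from 0.334 to 0.990). *RT1-A2* varied most among them, from 2.12 FPKM in male 4 to 8.26 FPKM in male 1, and *RT1-A3*, which overlaps *RT1-CE16*, ranged from 3.71 to 8.88 FPKM. *RT1-M3-1*, the rat counterpart of the mouse gene whose product presents formylated peptides, was at 9.23 FPKM in male 5 and at 2.93 FPKM in female 4.

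Over the whole set, 0 of 29 genes tested differed between the sexes at an adjusted p of at most 0.05 (limma over all genes, Benjamini-Hochberg), against a background of 2.40% of all genes tested. With a log2 fold change of at least 1 required as well, the background was 1.32% and the count was again 0. At an unadjusted p under 0.05 there were 6 of 29 (*RT1-S3*, *RT1-T24-2*, *Ciita*, *RT1-DOa*, *RT1-DMa* and *RT1-DMb*), against 15.7% of all genes. A fit of the recovered reads with limma-voom also called 0 of 29 after adjustment, against 2.86% of all genes, with 7 at an unadjusted p under 0.05 against 16.2% of all genes. The log2 fold change was below 0, that is lower in females, for 21 of 29 genes with a median of -0.19, against 51.2% of all genes with a median of -0.01. For 21 of the 29 the 95% confidence interval lay wholly within 1 on the log2 scale, so a doubling or halving was outside it. For the other 8, among them *RT1-DOa*, *RT1-DMa* and *RT1-DMb*, it was not. In simulated data with the same number of rats and 1 dispersion for all genes, 48% of genes with a 2-fold change were called. A change of that size could thus be missed. The share called among genes with the spread of this set was not simulated.

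**Figure D3:**
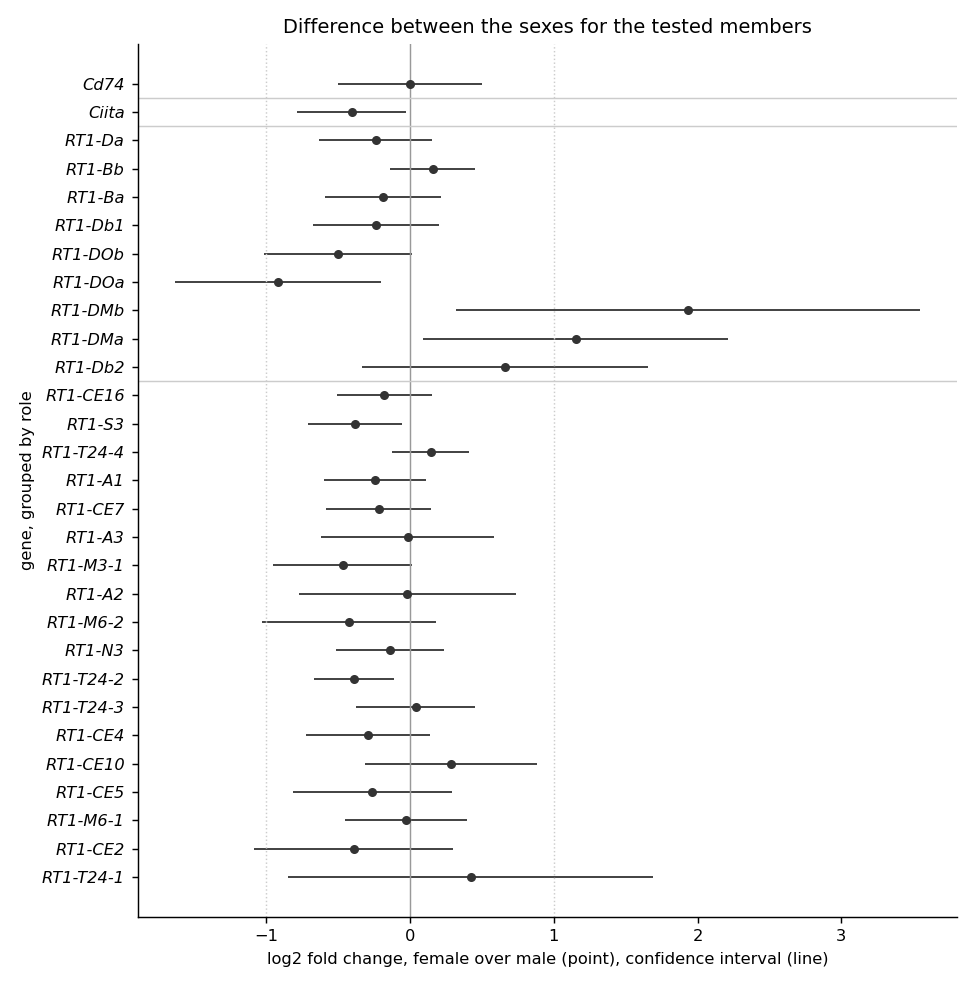
Log2 fold change of females over males for the 29 tested genes, with 95% confidence intervals as lines and dotted lines at -1 and 1, grouped by role. Most points lie slightly left of 0 (21 of 29). *RT1-DMb* (1.94) and *RT1-DMa* (1.15) lie farthest right and *RT1-DOa* (-0.92) farthest left, with wide intervals.

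Single rats differed from each other within each sex. Of the 26 genes that averaged 1 FPKM or more, 13 were highest in male 5, 7 of them class I. Male 4 was the lowest of all rats for 8 of the 26 and female 4 for 7. The SD of log2 values among rats of one sex had a median of 0.35 over the 29 tested genes, against 0.27 over all genes, and was 0.41 for the 9 tested class II chains and 0.31 for the 18 tested class I genes. *RT1-DMb* had the largest SD of the set (1.34, at the 95th percentile of all genes tested). *RT1-T24-1* (0.99), *RT1-DMa* (0.86), *RT1-Db2* (0.74), *RT1-A2* (0.62) and *RT1-DOa* (0.58) followed. *RT1-T24-1* and *RT1-Db2* had few reads, at most 10 and 17 in a library, while *RT1-A2* had 67 to 213. *Cd74* had an SD of 0.39 and *RT1-Da* of 0.32.

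**Figure D4:**
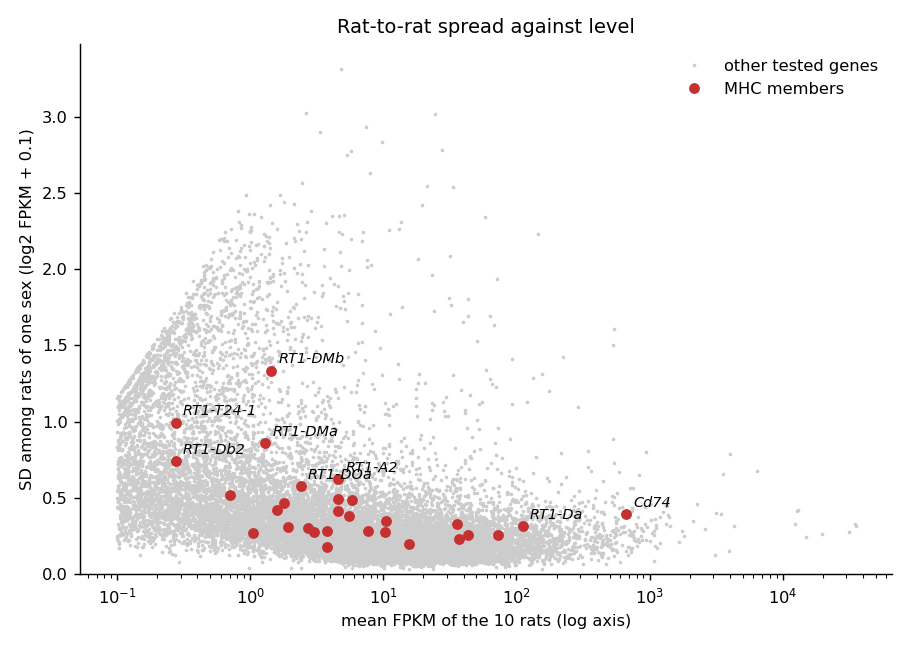
SD of log2(FPKM + 0.1) among rats of one sex against mean FPKM (log axis) for all 17631 genes tested (grey) and the 29 tested genes of the set (red). *RT1-DMb* (1.34) stands highest of the set and *Cd74* (0.39) lies at the right end.

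*Cd74* varied across the 10 rats together with some of its partners. Its log2 level correlated with that of *RT1-Ba* (Pearson r = 0.77, permutation adjusted p = 0.0237; Spearman rho = 0.84, adjusted p = 0.0129) and with the leukocyte gene *Ptprc* (r = 0.79, permutation adjusted p = 0.0237, rho = 0.84). Both p-values are two-sided, from 100000 resamples, and adjusted over 6 pairs. Leaving out female 2 and male 5, the rats farthest from the *Cd74* median, gave r = 0.87 for *RT1-Ba* and 0.67 for *Ptprc*. Without male 5 alone, r was 0.68 for *RT1-Ba* and 0.75 for *Ptprc*, and the permutation adjusted p of both was 0.103. Leaving out female 1, 3 or 4 alone also ended both calls, with adjusted p from 0.0515 to 0.0580 at r between 0.74 and 0.80.

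None of the other 4 pairs passed by Pearson's r with all 10 rats. *RT1-Da* gave r = 0.52 (permutation adjusted p = 0.136, rho = 0.48), and the ratio of *Cd74* to *RT1-Da* was 10.4 in female 2 against 4.75 to 7.25 in the other rats. Without female 2, r for *RT1-Da* was 0.79 (permutation adjusted p = 0.0399). *Ciita* gave r = 0.64 and rho = 0.68, with permutation adjusted p of 0.0607 and 0.0533. For the macrophage gene *Csf1r* r was 0.65 (permutation adjusted p = 0.0607) and rho 0.77 (adjusted p = 0.0255), and for the B cell gene *Cd79a* r was 0.60 (adjusted p = 0.0847) and rho 0.66 (adjusted p = 0.0537). Without the same 2 rats r was 0.49, 0.73, 0.55 and 0.39 for *RT1-Da*, *Ciita*, *Csf1r* and *Cd79a*. Taken as deviations from the mean of each sex, r was 0.56, 0.81, 0.83, 0.88, 0.80 and 0.74 for *RT1-Da*, *RT1-Ba*, *Ciita*, *Ptprc*, *Csf1r* and *Cd79a*. A value within 1 sex alone was not computed, since 5 rats are too few.

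Of 46 rows for markers of immune cells, 24 were highest in male 5, among them 8 of 10 for macrophages and 0 of 7 for B cells. The summed FPKM of 6 leukocyte markers was 84.96 to 167 in males and 49.6 to 134 in females, highest in male 5 and lowest in female 4. All 10 macrophage markers were lowest in female 4, with sums of 189 to 365 in males and 95.5 to 239 in females. Dendritic cell markers (7 genes) summed to 11.8 to 23.0 in males and 7.59 to 17.8 in females, and T and NK cell markers (10 genes) to 37.1 to 74.0 and 20.6 to 51.7. B cell markers (7 genes) were scarce, 5.11 to 18.4 in males and 1.05 to 21.1 in females with female 2 highest. Neutrophil markers (5 genes) summed to 1.29 to 14.2 and 1.17 to 4.74, with *S100a8* at 7.79 FPKM in male 5, 3.27 FPKM in male 1 and 0.150 to 0.565 FPKM in the other 8 rats, *Csf3r* at 0.386 to 1.17 FPKM, and *Mpo* at no more than 0.0607 FPKM. Proximal tubule markers ran the other way, lowest in male 5 and highest in female 4.

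Of the 43 genes tested in those 6 immune lists, 0 passed adjustment between the sexes with limma or with limma-voom, and 8 and 10 had an unadjusted p under 0.05, against 15.7% and 16.2% of all genes. The log2 fold change was below 0 for 5 of 6 leukocyte, 9 of 10 macrophage, 7 of 7 dendritic cell, 7 of 7 B cell, 8 of 9 T and NK cell and 3 of 4 neutrophil markers tested. Their medians were -0.48, -0.47, -0.43, -1.16, -0.42 and -0.58, against -0.01 over all genes. Endothelial markers had a median of 0.03, proximal tubule markers of 0.16 with *Cubn*, an endocytic receptor, called higher in females (0.72, SE 0.16, adjusted p = 0.0467), and collecting duct markers of 0.40 with *Avpr2*, the vasopressin receptor, called higher (0.44, SE 0.10, adjusted p = 0.0469). These were 1 of 7 proximal tubule and 1 of 6 collecting duct markers tested, with either tool, against 2.40% of all genes with limma and 2.86% with limma-voom. The *Cubn* call held when female 2 or male 4 was left out and the *Avpr2* call when female 2 or male 1 was, and each was lost without any one of the other 8 rats. Without 1 rat the log2 fold change stayed between 0.64 and 0.83 for *Cubn* and between 0.37 and 0.48 for *Avpr2*. The part of these cell type markers in the levels of the MHC genes was not tested.

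**Figure D5:**
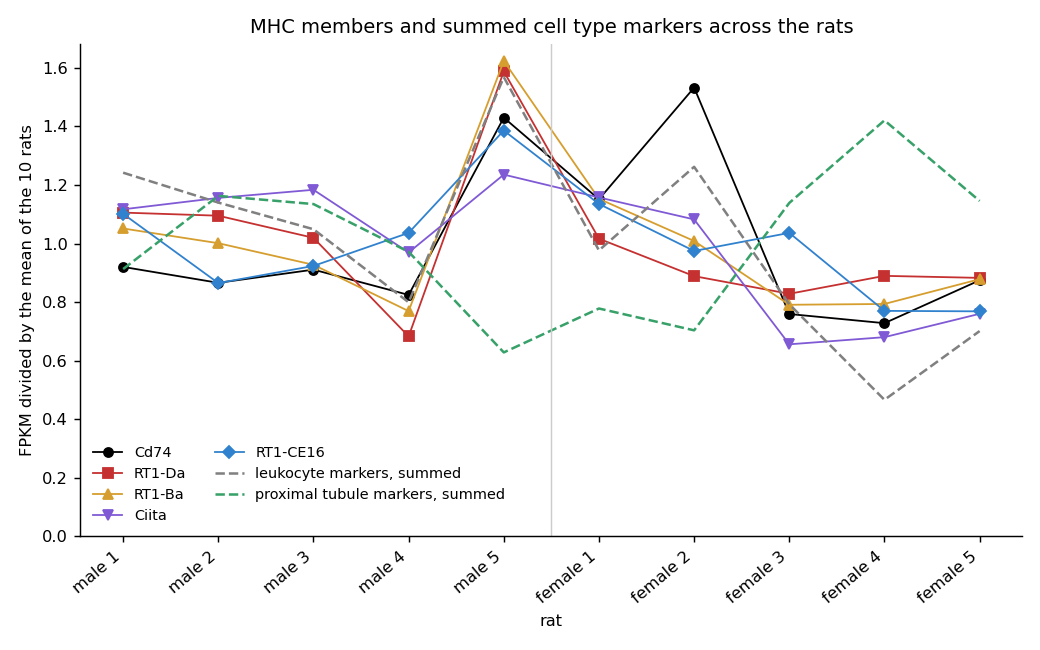
*Cd74*, *RT1-Da*, *RT1-Ba*, *Ciita* and *RT1-CE16* (solid lines) and the summed markers of leukocytes and proximal tubule (dashed lines) in each rat, each divided by its mean over the 10 rats. *RT1-Da*, *RT1-Ba*, *Ciita*, *RT1-CE16* and the leukocyte markers are highest in male 5, *Cd74* is highest in female 2 (1023 FPKM), and proximal tubule markers are lowest in male 5 and highest in female 4.

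Genes that act with the MHC were read from lists. Of 16 rows for class I loading and the immunoproteasome, 0 passed adjustment with limma or limma-voom, 3 and 4 had an unadjusted p under 0.05 (15.7% and 16.2% of all genes did), 11 had a log2 fold change below 0 and the median was -0.22. The most abundant were *B2m* (-0.21, SE 0.18), the chaperones *Calr* (0.26, SE 0.12) and *Canx* (0.03, SE 0.08) and the disulfide isomerase *Pdia3* (0.18, SE 0.10). Of 15 rows tested for class II transcription and peptide handling, 1 passed with either tool, against 2.40% of all genes with limma and 2.86% with limma-voom, and 5 and 6 had an unadjusted p under 0.05, against 15.7% and 16.2%. *Ifi30*, the lysosomal thiol reductase that unfolds antigens for class II loading, fell in females, at 133, 132, 135, 108 and 147 FPKM in males and 95.8, 90.9, 102, 105 and 94.9 FPKM in females. Every male lay above every female (ranges were separate for 5.10% of all genes tested), with a log2 fold change of -0.42 (SE 0.09, limma adjusted p = 0.0377). Leaving out any one rat but male 4 took its adjusted p above 0.05, with adjusted p of up to 0.104, while its log2 fold change stayed between -0.48 and -0.37. The *Ifi30* call was also lost with eBayes without trend and with the replicate number as a block. The cathepsins *Ctsl* (0.46, SE 0.16, adjusted p = 0.197) and *Ctsb* (0.39, SE 0.23), *Cd63* (-0.12, SE 0.17) and *Ctsd* (-0.15, SE 0.17), the most abundant of this list, did not pass.

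Interferon gamma signalling had 0 of 14 genes called with limma or limma-voom (7 with each at an unadjusted p under 0.05, against 15.7% and 16.2% of all genes) and a median of -0.22, with 11 below 0. Among its more abundant genes were *Ifngr1* (-0.28, SE 0.12, adjusted p = 0.286), *Jak1* (-0.07, SE 0.08, adjusted p = 0.742) and *Irf1* (-0.44, SE 0.19, adjusted p = 0.296). *Jak2*, a kinase of the receptor, had the lowest adjusted p of the list and pointed the other way, with males at 9.39 to 11.6 FPKM below females at 12.4 to 17.0 FPKM (0.46, SE 0.12, adjusted p = 0.0730), and is named after its values were seen. The ranges of the sexes were separate in 5.10% of all genes tested. *Ifng* itself was listed at 0 in 6 of the 10 rats and reached 0.351 FPKM in female 1. Costimulation had 0 of 6 called with limma or limma-voom (1 with each at an unadjusted p under 0.05, against the same shares), all 6 below 0 with a median of -0.23, and *Cd83* (-0.34, SE 0.15), *Cd86* (-0.18, SE 0.25), *Cd40* (-0.22, SE 0.24) and *Cd274* (-0.28, SE 0.33) were its most abundant genes.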

How the data were processed

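Messenger RNA of PCK rat kidney was sequenced, with 1 library per rat. The deposited values are FPKM per gene, which the authors' provider made by mapping reads to Rnor_6.0, and the submitters' processing notes name fastp, HISAT2 2.0.5, StringTie 1.3.3b and featureCounts 1.5.0-p3. The FPKM divided by the worth of 1 read gave whole reads for 100% of values (tolerance 0.01), hence the depths. Median-ratio size factors of the deposited FPKM were 1.01 in every library, while those of the recovered reads ran from 0.864 to 1.26, so the deposited values had already been put on a median-ratio scale and are not per total of mapped reads. Groups are the sex in the labels. As the closest pair of libraries within a sex differed beyond sampling noise (chi-square per degree of freedom 9.71), each counts as 1 replicate. The test was limma 3.58.1 (R 4.3.3, eBayes with trend) on log2(FPKM + 0.1) for the 17631 genes that averaged 0.1 FPKM or more, two-sided, with Benjamini-Hochberg adjustment over all of them. This scale understates changes of low genes. Permutation tests and sequence searches used scipy 1.17.1, pandas 2.3.3 and numpy 2.4.6 under Python 3.11.15. Percentiles rank a gene's SD among the genes tested. The genes described singly were those averaging 1 FPKM or more, all class II chains, *Cd74*, *Ciita*, any gene called or with separate ranges, and in lists any gene called and up to 4 of the highest mean. *RT1-CE2* and *RT1-T24-1*, the 2 tested genes outside that rule, are given by their values in the plots. The gene set, lists and ratios were chosen with earlier results of these data known. *Icosl* and *Pecam1* were not matched by symbol, *Marchf1* was read as *March1*, and *Tap2*, *Rfxap* and *Gzmb* are each in 2 rows. Fits were tested on simulated data of 17380 genes, drawn with 1 dispersion for all genes. There 48% of 2-fold and 83% of 4-fold changes were recovered and 12 of 17188 unchanged genes were called. Alternatives were pseudocounts of 1 and 0.01, other filters, quantile normalization, median-ratio scaling (which could change nothing, for that reason), the replicate number as a block, eBayes without trend, limma-voom on recovered reads and leaving out each rat. Litters were not used here, and some single genes of the lists are not reported here.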

Additional observations from a re-analysis of the deposited data

Results flagged for a closer look

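In 5 of 54 groups of 5 rats of one sex, the gap of 1 rat to the nearest other exceeded Dixon's critical value of 0.71 of the whole range. Chance alone flags about 1 group in 20. In male 5, *Cd74* was 954 FPKM against 550.4 to 614 FPKM in the other males (0.842 of the range), *RT1-CE4* was 3.22 FPKM against 1.74 to 1.999 FPKM (0.825), and *RT1-M3-1* was 9.23 FPKM against 5.28 to 6.26 FPKM (0.752). *RT1-Db2* in male 2 was 0.622 FPKM, from 17 reads, against 0.0330 to 0.176 FPKM (0.757). *RT1-T24-2* in male 4 was 4.49 FPKM against 4.14 to 4.23 FPKM (0.744), a gap within a narrow range.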

How the results depend on the processing

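Median-ratio scaling is no test of these results, because the deposited values already had equal factors. Under every other alternative, 0 of the MHC genes passed the adjusted threshold, and the lowest adjusted p of a named one was 0.0521 (*RT1-DOa*, leaving out female 2). Of the 27 named and tested, 21 kept their direction throughout. *RT1-DMb* turned only with both rows summed and 1 rat left out, to -0.30 and -0.0453 without male 3 and male 5 and to -0.0040 and -0.23 without female 3 and female 5. The other 5 had log2 fold changes near 0. *RT1-A3* turned to 0.0524 with quantile normalization and ran from -0.19 to 0.12 when 1 rat was left out. *RT1-A2* turned to 0.0179 with quantile normalization and 0.0396 with limma-voom (-0.26 to 0.22 without 1 rat). *RT1-M6-1* turned to 0.0899 and 0.0037 in the same settings (-0.11 to 0.0575 without 1 rat). *RT1-T24-3* ran from -0.0763 to 0.14 and *Cd74* from -0.17 to 0.14 without 1 rat. The number of MHC genes with separate ranges was 0 with quantile normalization and 1 to 4 without 1 rat, where the share over all genes was 5.10% and 5.79% to 8.69%. The lists had 1 pathway gene called lower and 2 marker genes called higher in females. With eBayes without trend both counts were 0, with no filter the marker count was 0, and with quantile normalization it was 1. Without 1 rat, called pathway genes numbered 0 to 1 in each direction and marker genes called higher 0 to 2, and the genes changed. *Ifi30* was called only without male 4, while *March1* was called lower without female 1, *Cxcl11* lower and *Jak2* higher without female 2, *Atp6v1b1* higher without female 1 and *Aqp2* higher without male 1. The replicate numbers did not pair the rats, since same-numbered males and females had correlations of deviations from -0.10 to 0.07. With the replicate block, 0 MHC genes, 0 pathway genes and 0 marker genes were called, and only replicate 3 had its best match in its own number. The correlation of *Cd74* rose to 0.69 for *RT1-Da*, 0.68 for *Ciita* and 0.80 for *Csf1r* with quantile normalization, and was 0.83 for *Ciita*, 0.80 for *Csf1r* and 0.74 for *Cd79a* as deviations from each sex's mean, all past the threshold. Without 1 rat it ran from 0.20 to 0.79 for *RT1-Da*, 0.68 to 0.95 for *RT1-Ba*, 0.55 to 0.71 for *Ciita*, 0.74 to 0.83 for *Ptprc*, 0.52 to 0.72 for *Csf1r* and 0.52 to 0.72 for *Cd79a*. It passed for *RT1-Da* without female 2 (adjusted p = 0.0399), and, with permutation adjusted p from 0.0439 to 0.0480, for *Ciita* without male 2 or female 2, *Csf1r* without male 1 or female 2 and *Cd79a* without male 1 or male 2. The cause of these shifts was not tested. Genes at few reads, such as *RT1-Db2* and *RT1-T24-1*, are limited by depth, and *RT1-Db2* was not tested under the filter at 1 FPKM.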

Other observations

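Among regulators of class II transcription, a pair of genes had separate male and female ranges without passing adjustment, against 5.10% of all genes tested with separate ranges, and they are named after their values were seen. *Rfx5*, a subunit of the RFX complex that binds the X box, lay at 8.38 to 9.56 FPKM in the males and at 6.72 to 8.14 FPKM in the females (log2 fold change -0.29, SE 0.08, limma adjusted p = 0.107). *Rfxank*, another subunit of that complex, lay at 9.53 to 11.7 FPKM in the males and at 12.2 to 14.4 FPKM in the females (0.29, SE 0.08, adjusted p = 0.111). *March1*, whose product is a ubiquitin ligase that removes class II from the cell surface, was 2.46, 2.88, 2.63, 1.33 and 2.79 FPKM in males and 1.87, 1.02, 1.08, 0.665 and 0.493 FPKM in females. Male 4 alone reached into the female range, and the log2 fold change was -1.24 (SE 0.32, adjusted p = 0.0800).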
